A study of Mus musculus with 4 samples.

Results

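The cells that were dividing in the ascending aorta of mice with aortic dissection were chosen by their measured Mki67 and Top2a counts, and were sorted by the kind of cell that was dividing. A cell was counted as proliferating when its unique molecular identifiers (UMIs, each marking 1 captured RNA molecule) for Mki67 and Top2a summed to at least 3. The rule was applied to barcodes with at least 200 detected genes and under 20% of UMIs from mitochondrial genes. It selected 1260 of 40565 cells. Each proliferating cell was then given a lineage, in a fixed order: leukocyte with at least 1 Ptprc UMI (the pan-leukocyte antigen CD45), endothelial with at least 2 UMIs of Pecam1 and Cdh5 (adhesion molecules of endothelial junctions), smooth muscle with Acta2 and Tagln at 1% or more of UMIs, and fibroblast with at least 3 UMIs of Dcn (the matrix proteoglycan decorin). By this order 414 were leukocytes, 93 endothelial cells, 48 smooth muscle cells and 635 fibroblasts, and 70 met none of the criteria.

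The 4 libraries were droplet-based single-cell RNA libraries of ascending aorta from male wild-type mice. All mice drank water with β-aminopropionitrile (BAPN), which blocks lysyl oxidases and so the cross-linking of collagen and elastic fibres. The dose was 1 g/kg per day, starting at 3 weeks of age and lasting 4 weeks. The AD group (2 libraries) had BAPN alone, and the AD_ABR group (2 libraries) was also given paquinimod (abbreviated ABR), a small molecule that binds S100A9, by gavage at 10 mg/kg per day. Every group used here had BAPN, so the values compare paquinimod with no paquinimod in the dissection model. The labels do not say whether the libraries of a group came from separate animals or pools, so p-values measure only the spread between these libraries.

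The cell cycle is read in RNA through waves of genes. In late G1 and S phase, E2F factors drive genes for DNA replication such as the Mcm helicase subunits, Pcna and the nucleotide synthesis enzymes. In G2 and mitosis, the MuvB complex with B-Myb and FoxM1 drives genes of the spindle, the kinetochore and cyclin B, and the same complex with DREAM proteins represses them in resting cells through a promoter element called the cell cycle genes homology region (CHR). Mki67 encodes the surfactant-like coat protein of mitotic chromosomes, and Top2a the topoisomerase that untangles replicated DNA. Cenpf encodes a kinetochore protein and Birc5 the chromosomal passenger survivin. In the adult aorta few cells of the wall divide, and injury brings dividing macrophages, fibroblasts and, in lower numbers, smooth muscle and endothelial cells.

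The selecting genes belong to the mitotic class, so the 250 bases before the transcription start are shown for both to display its promoter letters, with Cdk1 (the mitotic kinase) for the G2 and mitosis genes and Mcm5 (a helicase subunit) for the S phase genes. Cdk1 and Mcm5 were chosen as examples after their motifs were seen. Sequences are those of RefSeq on GRCm38.p6, 5′ to 3′ in the direction of the gene. Capitals mark TTTGAA (CHR), CCAAT (the site of NF-Y), and GCGGGAA or GCGCGAA (E2F), each on either strand, where motifs of different kinds may overlap. The windows lie at chr7:135716380-135716629 (minus strand) for Mki67, chr11:99024190-99024439 (minus) for Top2a, chr10:69352913-69353162 (minus) for Cdk1 and chr8:75109259-75109508 (plus) for Mcm5.
Mki67: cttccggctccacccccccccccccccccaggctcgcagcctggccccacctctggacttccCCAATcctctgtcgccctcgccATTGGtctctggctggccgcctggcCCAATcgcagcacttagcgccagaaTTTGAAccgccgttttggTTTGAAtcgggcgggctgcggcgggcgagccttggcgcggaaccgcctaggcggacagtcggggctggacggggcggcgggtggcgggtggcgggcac
Top2a: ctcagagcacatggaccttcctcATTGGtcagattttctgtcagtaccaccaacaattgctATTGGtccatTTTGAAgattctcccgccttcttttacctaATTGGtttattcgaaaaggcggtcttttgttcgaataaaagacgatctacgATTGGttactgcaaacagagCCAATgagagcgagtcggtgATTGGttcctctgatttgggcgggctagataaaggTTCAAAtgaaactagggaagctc
Cdk1: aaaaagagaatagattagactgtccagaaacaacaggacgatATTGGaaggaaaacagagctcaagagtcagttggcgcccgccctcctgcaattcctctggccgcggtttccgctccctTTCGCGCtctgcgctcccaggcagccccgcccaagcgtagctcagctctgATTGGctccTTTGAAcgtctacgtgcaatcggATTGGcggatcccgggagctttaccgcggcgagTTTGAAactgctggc
Mcm5: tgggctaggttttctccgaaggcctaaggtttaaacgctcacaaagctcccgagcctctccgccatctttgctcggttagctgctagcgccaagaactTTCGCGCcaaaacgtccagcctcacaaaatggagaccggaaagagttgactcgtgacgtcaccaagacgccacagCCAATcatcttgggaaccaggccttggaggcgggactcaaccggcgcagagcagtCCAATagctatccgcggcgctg
The Mki67 window held 2 CHR and 3 CCAAT matches, and the Top2a window 2 and 6. The Cdk1 window held 2 CHR, 3 CCAAT and 1 E2F match, whereas the Mcm5 window held 2 CCAAT and 1 E2F match and no CHR. In windows from 250 bases before to 50 after the start, the CHR letters were present in 25 of the 36 genes with a promoter in the table from the G2 and mitosis list (69.4%), in 5 of 28 from the S phase list (17.9%) and in 20.2% of all 27025 genes. The E2F letters were present in 57.1% of the S phase genes, 11.1% of the G2 and mitosis genes and 6.86% of all genes. CCAAT was common to both lists, at 64.3% and 75%, against 41.1% of all genes. CHR and CCAAT stood in the same window in 58.3% of G2 and mitosis genes, 14.3% of S phase genes and 7.97% of all genes. Birc5 held none of these letters in this window, and a match is a description of the sequence, not a measured binding site.

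The label was checked against Cenpf and Birc5, which the rule did not use. A Cenpf or Birc5 UMI was present in 2.16% of cells with no Mki67 or Top2a UMI, in 32.1% of the 371 cells with 2 UMIs, in 43.7% of the 151 cells with 3 and in 99.7% of the 764 cells with 10 or more. Over all libraries, detection was thus close on either side of the threshold, and most members lay well above it. Among fibroblast members, 247 of 281 and 277 of 324 in AD had 5 or more UMIs. In AD_ABR it was 8 of 15 and 10 of 15, so more of these lay near the threshold. At 3 UMIs the detection was 47.8 and 49.3% in AD against 35.7 and 20% in AD_ABR, over 14 and 20 cells in the latter. Cells with more selecting UMIs were also deeper, with a median of 7637 UMIs at 0 and 27863 at 10 or more. As a background, cells marked as neutrophils, which no longer divide once mature, reached 3 UMIs in 0.56 and 1.69% of cells in AD and in 0 of 33 in AD_ABR, which allows up to 9.09%. Their median depth in AD was 1727 and 1735 UMIs, below that of the members.

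**Figure D1:**
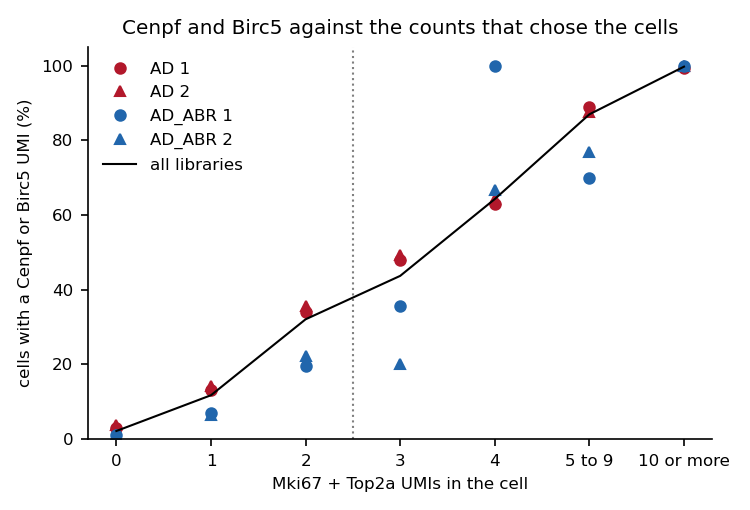
Share of cells with at least 1 Cenpf or Birc5 UMI (y axis, %) by the sum of Mki67 and Top2a UMIs in the cell (x axis), one point per library and a line for all cells. The dotted line marks the minimum of 3; detection climbs from 2.16% at 0 to 99.7% at 10 or more.

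The AD libraries kept 9945 and 10698 cells and the AD_ABR libraries 9116 and 10806, with median depths of 5569 to 9529 UMIs. The share of UMIs from Rn18s-rs5, which resembles ribosomal RNA, was 5.21 and 3.13% in AD against 1.80 and 1.33% in AD_ABR. Of the members, 240 (19.0%) were among the top-scored doublets, against 7.80% of other cells, and 171 met 2 or more lineage criteria, 93 of them those of leukocytes and fibroblasts. No member barcode sequence was a member in another library, and 9 were kept in another library as non-members. Members were deeper than other cells of their lineage, and the AD fibroblast members were deepest, at a median of 34999 and 29307 UMIs against 15016 and 18270 in AD_ABR.

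Proliferating cells were fewer in the paquinimod group, and the fibroblasts that led them in AD were the lineage with the largest fall among the 5 classes. The 2 AD libraries held 520 and 553 proliferating cells, and the AD_ABR libraries 70 and 117. As a share of all kept cells this was 5.20% ± 0.0421 (SD, n = 2) in AD and 0.925% ± 0.223 in AD_ABR, a 5.62-fold difference (log2 -2.49 ± 0.50 SE, edgeR adjusted p = 0.00187). The groups did not overlap, and the exact two-sided permutation p was 0.333, the smallest that 2 libraries against 2 allow. The call was lost with TMM factors, a scaling that takes most rows to be unchanged (log2 -1.33, adjusted p = 0.0560 in edgeR) and without AD_ABR library 1 or 2 (adjusted p = 0.0947 and 0.0695). The fall of this share was known from earlier results of the same data.

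Fibroblasts made up 281 and 324 of the proliferating cells in AD but 15 and 15 in AD_ABR. Their share of all cells was 2.93% ± 0.144 and 0.152% ± 0.0182, a 19.3-fold difference (log2 -4.26 ± 0.34 SE, edgeR adjusted p = 0.000192). This was the one lineage whose share kept its call in every alternative run. Proliferating leukocytes numbered 160 and 145 in AD against 33 and 76 in AD_ABR, or 1.48% ± 0.179 and 0.533% ± 0.241 of all cells (log2 -1.47, edgeR adjusted p = 0.0226). Proliferating endothelial cells numbered 38 and 33 against 8 and 14 (log2 -1.64, edgeR adjusted p = 0.0191). Smooth muscle had the fewest members, at 15 and 20 against 8 and 5 cells (log2 -1.34, edgeR adjusted p = 0.0359). Cells with no lineage numbered 26 and 31 against 6 and 7 (log2 -2.06, edgeR adjusted p = 0.00884). The edgeR calls of these 4 groups were lost in several settings, including without AD library 1 (leukocyte and endothelial, adjusted p = 0.110), without AD library 2 (leukocyte, 0.0662) and without AD_ABR library 1 (leukocyte 0.133, endothelial 0.125, no lineage 0.114). For smooth muscle the edgeR call was lost without any of the 4 libraries (adjusted p from 0.110 to 0.316). The make-up of the dividing population differed accordingly: fibroblasts were 54.0 and 58.6% of it in AD and 21.4 and 12.8% in AD_ABR, the last with an exact 95% interval of 7.36 to 20.3% for counting error.

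**Figure D2:**
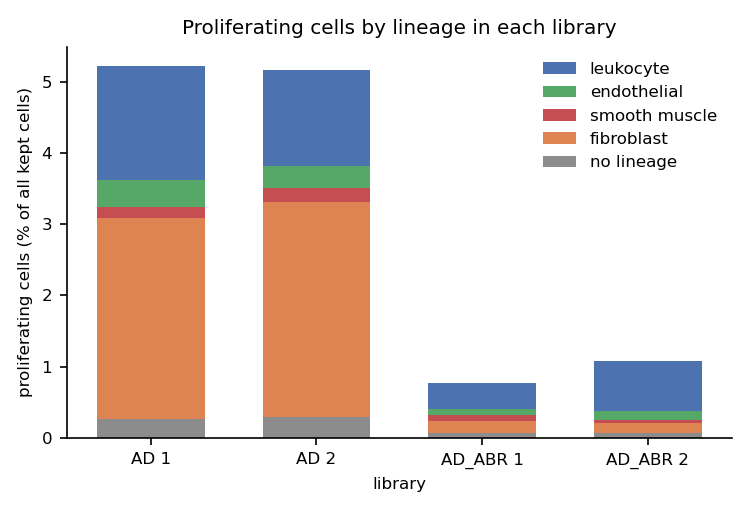
Proliferating cells as a share of all kept cells (y axis, %) in each of the 4 libraries (x axis), with the bar split by lineage. Fibroblasts take 2.83 and 3.03% of all cells in AD and 0.165 and 0.139% in AD_ABR.

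A share of all cells mixes how many cells of a lineage there were with how many of them divided, so the dividing fraction was also taken within each lineage. Among fibroblasts 11.7 and 7.34% were proliferating in AD, and 0.469 and 0.325% in AD_ABR. This was a 24.0-fold difference (log2 -4.59 ± 0.48 SE, edgeR adjusted p = 1.19e-05), while fibroblasts in all numbered 2392 and 4415 in AD against 3198 and 4613 in AD_ABR. The call held in each alternative run. In the run thinned to 5000 UMIs, only the Mki67 and Top2a UMIs were redrawn at that depth. Cells below it were left out, and lineages were kept from the full counts. The run with exactly 1 lineage criterion could not change the fibroblast numbers, since fibroblasts come last in the order. Among leukocytes the fraction was 3.81 and 6.86% in AD against 5.09 and 6.14% in AD_ABR, and the AD values lay on both sides of the AD_ABR values. That difference was not past the threshold (log2 0.09 ± 0.41 SE, edgeR adjusted p = 0.824), while leukocytes in all numbered 4194 and 2115 against 648 and 1237. Without AD library 2 the leukocyte fraction was higher in AD_ABR (log2 0.60, edgeR adjusted p = 0.0140), so its direction rests on single libraries.

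The vessel wall cells lay between these. Among endothelial cells 6.03 and 3.66% were proliferating in AD and 0.892 and 1.40% in AD_ABR (log2 -2.04 ± 0.50 SE, edgeR adjusted p = 0.00346). Among smooth muscle cells the values were 1.56 and 0.932% against 0.203 and 0.154% (log2 -2.70 ± 0.56 SE, edgeR adjusted p = 0.00186). Neither lineage overlapped between groups. Both calls were lost without AD_ABR library 1 (edgeR adjusted p = 0.116 for endothelial and 0.0584 for smooth muscle cells) and without AD_ABR library 2 (0.0560 for both). The endothelial call was also lost with TMM factors (edgeR adjusted p = 0.137) and in cells that met exactly 1 lineage criterion (0.124). In cells with no lineage, 1.47 and 2.77% against 1.41 and 0.999%, the difference did not pass (log2 -0.82, edgeR adjusted p = 0.213), though it did without AD library 1 (log2 -1.25, edgeR adjusted p = 0.0267). Fewer dividing cells and fewer Mki67 and Top2a molecules per cell cannot be told apart where a threshold defines the cells.

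The difference between lineages was tested itself, after the data had been seen, in all 10 pairs of lineages with the library as a block and Benjamini-Hochberg adjustment over the 10. The change of the fibroblast fraction was below that of leukocytes by 4.70 on the log2 scale (SE 0.75, edgeR adjusted p = 0.0243). It was also below that of endothelial cells by 2.52 (SE 0.56, edgeR adjusted p = 0.0293) and of smooth muscle cells by 1.81 (SE 0.48, edgeR adjusted p = 0.0351). Leukocytes and smooth muscle differed by 2.81 (edgeR adjusted p = 0.0351), and leukocytes and endothelial cells by 2.18 (0.0572). Endothelial and smooth muscle cells were not told apart (difference 0.65, SE 0.54, edgeR adjusted p = 0.289). The pairs share their libraries and the fits are small. Without AD_ABR library 1 or 2 the fibroblast to leukocyte difference was 5.08 and 4.29 and no longer past the threshold (edgeR adjusted p = 0.164 and 0.287). The calls against endothelial cells (0.0553 and 0.0809) and smooth muscle cells (0.105 and 0.0809) were lost there too, as was that between leukocytes and smooth muscle (0.199 and 0.343). The fibroblast to smooth muscle call was also lost thinned to 5000 UMIs (0.258), with doublets removed (0.0546) and with exactly 1 lineage criterion (0.144). With doublets removed the leukocyte to smooth muscle call was lost (0.0546).

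**Figure D3:**
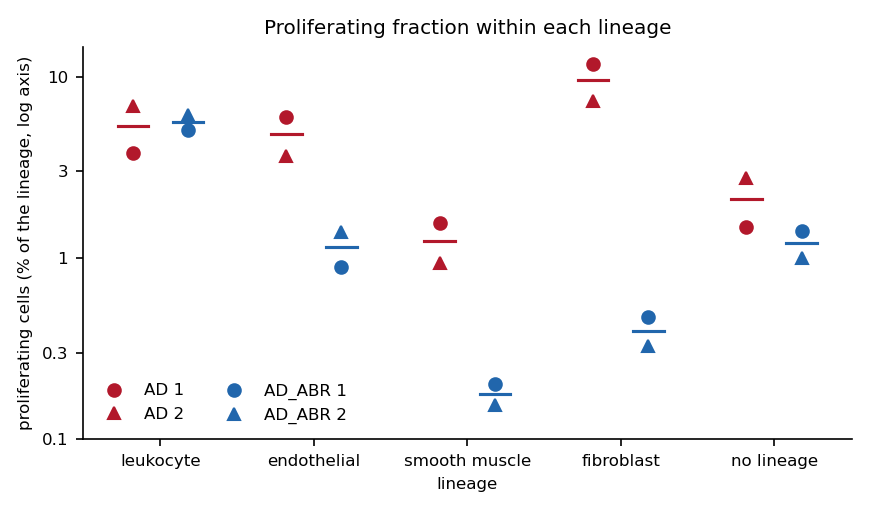
Proliferating cells as a percentage of their lineage (y axis, log axis) for 5 lineage classes (x axis), one point per library and a bar at each group mean. AD_ABR fibroblasts sit at 0.469 and 0.325%, below 11.7 and 7.34% in AD, while the leukocyte values of the groups overlap.

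Most dividing leukocytes carried macrophage RNA. At least 2 UMIs of Csf1r (the CSF1 receptor), Adgre1 (F4/80), C1qa and Mrc1 (the mannose receptor) were present in 95 of 160 and 106 of 145 leukocyte members in AD and in 22 of 33 and 64 of 76 in AD_ABR, that is 59.4, 73.1, 66.7 and 84.2%. Among the leukocytes that were not dividing, the same was true of 42.1, 44.5, 68.0 and 72.4%. Members were deeper, at medians of 11409 to 16216 UMIs against 3877 to 8008, so they reached a fixed 2 UMIs more easily. In CPM, none of the 10 macrophage markers was higher in members of all 4 libraries and 3 were lower. Their median log2 ratio was -0.27 against 0 for all genes, of which 12.2% were lower in all 4 libraries. Other leukocyte types were present in smaller numbers. The T cell receptor genes Cd3e, Cd3d and Cd3g marked 12, 6, 5 and 2 members of the 4 libraries, the B cell genes Cd79a, Cd79b and Ms4a1 marked 5, 4, 1 and 0, and the dendritic cell genes Flt3, Zbtb46, Xcr1 and Clec9a marked 22, 7, 5 and 5. Neutrophil genes marked 9, 2, 0 and 2. The neutrophil precursor list (Elane, Mpo, Prtn3, Ctsg, Camp, Ltf, Ngp) summed to 1113 CPM (UMIs scaled to a common library total) in the leukocyte members of AD library 1 and to at most 3.22 CPM in the other 3 libraries, and Elane, Mpo, Prtn3 and Ctsg reached 2 UMIs in 1 member of that library. Fibroblast genes (Dcn, Lum, Col1a1, Pdgfra) reached 2 UMIs in 68.1 to 87.9% of the leukocyte members.

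Some dividing endothelial cells carried lymphatic RNA in AD. Prox1 (the lymphatic fate factor), Flt4 (the VEGF-C receptor) and Mmrn1 reached 2 UMIs in 12 of 38 and 7 of 33 endothelial members in AD and in none of 8 and 14 in AD_ABR, which allows a share of up to 13.6%. Among endothelial cells that were not dividing, the same was true of 26.2 and 11.9% in AD against 3.60 and 2.43% in AD_ABR, lower in AD_ABR in both states. The AD members were deeper, at medians of 17885.5 and 19414 UMIs against 7027.5 and 6737. In CPM, 5 of 6 lymphatic markers were lower in members of all 4 libraries (median log2 ratio -1.32), against 14.2% of all genes. Of the 93 endothelial members 53 met more than 1 lineage criterion, and 26.3 and 36.4% of those in AD were top-scored doublets. Kdr, the main VEGF receptor of blood endothelium, stood at 129 and 75.1 CPM in the AD endothelial members and was not detected in those of AD_ABR. In the other endothelial cells Kdr was 110 and 54.0 CPM in AD against 15.1 and 12.7 CPM in AD_ABR. No test was made on these members, since AD_ABR library 1 held 8 of them.

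Most genes of the cell cycle lists were higher in the proliferating cells of each lineage. Proliferating cells were compared with the other cells of their lineage as a description, because the rule chose them on this contrast. Of 44 G2 and mitosis genes, 43 were higher in the proliferating cells of all 4 libraries in leukocytes, endothelial cells, smooth muscle cells and fibroblasts, with medians of 4.52, 5.27, 5.35 and 4.74 on the log2 scale of CPM + 1. Over all genes detected, 8.76 to 10.8% were higher in all 4 libraries of these 4 lineages. Of 36 S phase genes, 36 were higher in leukocytes, 35 in endothelial cells, 33 in fibroblasts and 24 in smooth muscle, where each library had 5 to 20 members. Cdk1 stood at 189 and 221 CPM in the AD fibroblast members and at 219 and 440 CPM in those of AD_ABR, against 1.48 to 6.32 CPM in the other fibroblasts. Mcm5 stood at 87.1 and 58.5 CPM in the AD fibroblast members and at 96.3 and 23.2 CPM in AD_ABR. Outside the lists, Pclaf (a PCNA-binding factor), Pbk (a mitotic kinase), Kif4 (a chromokinesin) and Spc25 (a kinetochore subunit) were among the 10 leading genes in each of the 4 lineages.

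Levels of the proliferation markers within the members are given as a description, because the rule used Mki67 and Top2a and so required them of members in both groups. In fibroblast members Mki67 was 326 and 391 CPM in AD against 272 and 480 CPM in AD_ABR, and Top2a was 363 and 427 CPM against 425 and 721 CPM. Cenpf was 212 and 269 CPM against 199 and 827 CPM, and Birc5 was 319 and 419 CPM against 233 and 566 CPM. In leukocyte members Birc5 was 310 and 363 CPM in AD against 407 and 448 CPM in AD_ABR. In the fibroblasts below the threshold, by contrast, Birc5 was 13.1 and 9.84 CPM in AD against 1.41 and 1.40 CPM in AD_ABR. The AD values lay above both AD_ABR values there, in cells that may still hold 1 or 2 selecting UMIs.

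The balance of S phase to mitotic RNA overlapped between groups over all members. The rule chose members by 2 genes of the mitotic class, so it bears on this balance in both groups. From cells with 3 selecting UMIs to those with 10 or more, G2 and mitosis RNA went from 1247 to 6313 CPM. S phase RNA went from 1104 to 2382 CPM. The ratio of summed S phase to summed G2 and mitosis UMIs over all members was 0.510 and 0.358 in AD against 0.413 and 0.301 in AD_ABR (exact two-sided permutation p = 0.667). In leukocyte members it was 0.579 and 0.483 against 0.441 and 0.408, with no overlap (exact permutation p = 0.333, the smallest possible), but the mean over cells was 0.579 and 0.515 against 0.539 and 0.440, which overlapped (exact permutation p = 0.667). In fibroblast members it was 0.492 and 0.350 in AD against 0.784 and 0.120 in AD_ABR, where each value came from 15 cells. As a mean over cells the value of AD_ABR library 1 was 0.448.

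**Figure D4:**
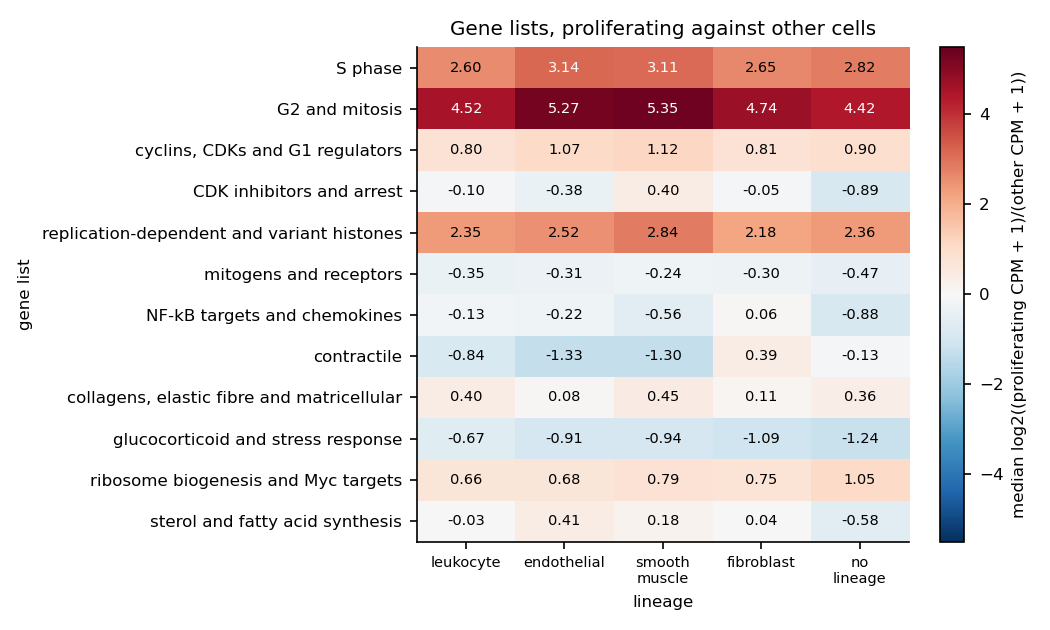
Median over the genes of each list (rows) of the log2 ratio of proliferating to other cells in CPM + 1, for 5 lineage classes (columns). Of the 12 lists drawn, which leave out the 4 proliferation markers, G2 and mitosis genes stand highest (4.42 to 5.35), and the glucocorticoid and stress list is below 0 in each column (-0.67 to -1.24).

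Lists beyond the cell cycle were compared in the same way, again without a test. Of the 20 ribosome biogenesis genes and Myc targets, 15 were higher in leukocyte members of all 4 libraries, 10 in endothelial, 11 in smooth muscle and 11 in fibroblast members, and none was lower in all 4. Of the 15 glucocorticoid and stress response genes, which include the immediate early genes Fos and Egr1, 11, 11, 11 and 13 were lower in these lineages. Fos was 1246 and 1585 CPM in AD fibroblast members and 2136 and 2617 CPM in AD_ABR, against 3314 to 5542 CPM in other fibroblasts. The share of all genes that were lower in all 4 libraries was 12.2% in leukocytes, 14.2% in endothelial cells, 22.0% in smooth muscle and 19.0% in fibroblasts. Of the 15 contractile genes, 13 were lower in smooth muscle members, 12 in endothelial, 10 in leukocyte and 1 in fibroblast members. In fibroblast members 5 of the 15 were higher in all 4 libraries, against 9.15% of all genes, and the median log2 ratio was 0.39. Myh11, the smooth muscle myosin heavy chain, was 1275, 954, 1179 and 493 CPM in smooth muscle members and 4300, 3986, 3407 and 2946 CPM in other smooth muscle cells. Fn1 (fibronectin) was higher in the smooth muscle members, at 1915 to 2111 CPM against 874 to 1155 CPM. Of the smooth muscle members of the 4 libraries, 46.7, 50, 0 and 40% were top-scored doublets, against 6.64 to 11.0% of other smooth muscle cells. Of the 48 smooth muscle members 14 met more than 1 lineage criterion. The part of mixed barcodes in these values was not tested.

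Outside the lists, the genes lowest in fibroblast members of all 4 libraries were led by Abca8a, a lipid transporter (log2 -3.64 to -2.92), G0s2, an inhibitor of lipolysis (-3.24 to -2.49), and Apod, a lipocalin (-4.46 to -2.45). Gstm1, a glutathione transferase, was also among the leading genes. Of the 7 fibroblast markers (Dcn, Lum, Col1a1, Col1a2, Pdgfra, Gsn and Dpt), 6 were lower in fibroblast members of all 4 libraries and none was higher. Their median log2 ratio was -0.95 against -0.03 for all genes, of which 19.0% were lower. The lineage of these members rests on at least 3 Dcn UMIs. Cyclin D1 (Ccnd1) was 86.5 and 83.7 CPM in the AD fibroblast members and 49.8 and 56.2 CPM in those of AD_ABR, against 40.6 to 47.1 CPM in other fibroblasts. Cyclin D2 (Ccnd2) was lower in the members, at 124 to 189 CPM against 250 to 303 CPM. Smooth muscle members had as leading lower genes Sost, an inhibitor of Wnt signalling, and Ppp1r14a, an inhibitor of myosin phosphatase.

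Gene levels in fibroblast members were compared between the groups. Of 12234 genes tested in the summed counts of each library, 96 passed (0.785%), 72 higher (0.589%) and 24 lower (0.196%) in AD_ABR. None of the 36 S phase and none of the 44 G2 and mitosis genes was among the 96 in edgeR. The rule required Mki67 and Top2a RNA of members in both groups, so nothing is read from this. Of the G2 and mitosis genes 36 had values above 0 and 8 below, with a median of 0.31 against -0.07 for all genes. For the S phase genes 12 were above and 24 below, with a median of -0.21. Each AD_ABR library contributed 15 cells, and the count depended on the fit: 387 genes passed with DESeq2, 31 without either AD_ABR library, 162 and 307 without AD library 1 or 2, and 0 in edgeR at a minimum of 5 UMIs or with no filter on low counts (1835 and 2347 genes at an unadjusted p under 0.05).

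The genes that fell were led by Tnc (tenascin C, a matrix protein of wounds), at 274 and 174 CPM in AD against 6.64 and 19.9 CPM in AD_ABR (log2 -4.11 ± 0.46 SE, edgeR adjusted p = 0.0132). Timp1, an inhibitor of metalloproteinases, was 3425 and 2249 CPM against 708 and 682 CPM (log2 -2.06 ± 0.27 SE, edgeR adjusted p = 0.0212). The groups did not overlap for either gene. Lif, a cytokine of the IL-6 family, was 64.0 and 74.3 CPM in AD, and 0 and 3.31 CPM in AD_ABR (log2 -5.40 ± 0.66 SE, edgeR adjusted p = 0.0188). Cxcl2, a neutrophil chemokine, was 804 and 1102 CPM against 299 and 225 CPM (log2 -1.90 ± 0.28 SE, edgeR adjusted p = 0.0276), and the interferon-induced chemokine Cxcl10 was 241 and 422 CPM against 46.5 and 29.8 CPM. Of the 24 NF-kB targets and chemokines, 3 fell (Lif, Cxcl2 and Tnfaip3) and none rose. Values were below 0 for 22 of them, with a median of -0.92 against -0.07 for all genes. Other lists were as one-sided without a gene past the threshold. All 16 sterol and fatty acid synthesis genes (median -1.30) and all 20 ribosome biogenesis genes and Myc targets (median -0.79) had values below 0. Tpm1 (tropomyosin) fell from 721 and 695 to 252 and 225 CPM, the 1 of 15 contractile genes to pass. Hnrnpd, Tes, Noct and Ppa1 were the other named genes that fell. In other fibroblasts these and Tnc, Timp1, Lif, Cxcl2, Cxcl10 and Tpm1 were also lower in both AD_ABR libraries. Timp1 was 1530 and 1050 CPM there in AD against 471 and 338 CPM in AD_ABR. Cxcl2 was 574 and 673 CPM against 110 and 125 CPM.

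The genes that rose were led by Sema3c, a guidance cue, at 22.6 and 19.7 CPM in AD against 156 and 152 CPM in AD_ABR (log2 2.83 ± 0.23 SE, edgeR adjusted p = 0.0105). Clec3b (tetranectin) was 45.5 and 51.1 CPM in AD against 375 and 639 CPM in AD_ABR (log2 3.35 ± 0.29 SE, edgeR adjusted p = 0.0105). Scara5, a ferritin receptor, was 10.4 and 10.3 CPM against 79.7 and 126 CPM. In each of these genes both AD_ABR libraries stood above both AD libraries. Of the 21 matrix genes, Fbln5, which helps assemble elastic fibres, rose from 124 and 216 to 1236 and 1003 CPM (log2 2.68, edgeR adjusted p = 0.0171), while Tnc and Timp1 fell. Dcn, which the rule used, was 1508 and 2219 CPM in AD against 6375 and 6137 CPM in AD_ABR. Apoe, Bace2, Htra3, Entpd2 and Ltbp4 were the other named genes that rose. In other fibroblasts these and Clec3b and Scara5 were also higher in both AD_ABR libraries. Clec3b was 502 and 694 CPM there in AD against 886 and 1220 CPM in AD_ABR. Sema3c overlapped there, at 70.9 and 91.7 CPM against 85.8 and 111 CPM. Cdkn1a, the cell cycle inhibitor p21, was 186 and 125 CPM in AD against 465 and 625 CPM in AD_ABR (log2 1.77, edgeR adjusted p = 0.0305), the 1 gene of 18 CDK inhibitors and arrest genes to pass. Tsc22d3, a glucocorticoid-induced repressor, was 23.0 and 36.4 CPM against 176 and 261 CPM (log2 2.84, edgeR adjusted p = 0.0132), and it was higher in the other fibroblasts of AD_ABR as well, at 382 and 562 CPM against 108 and 109 CPM. Without AD_ABR library 1 or 2, the edgeR calls of Tnc, Timp1, Cxcl2, Cdkn1a, Tpm1, Tsc22d3, Lyz2, Hnrnpd, Tes, Noct, Ppa1 and Tnfaip3 were lost (adjusted p from 0.0562 to 0.137), as were those of Lif and Entpd2 (0.0562 for both, without AD_ABR library 1 alone), Fbln5 (0.0914 and 0.0990) and Cxcl10 (0.108 and 0.179). Those of Sema3c, Clec3b, Scara5, Apoe, C1qb, Bace2, Htra3 and Ltbp4 were kept.

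Macrophage RNA moved with this comparison. Of the 10 macrophage markers 9 could be tested in fibroblast members; 4 rose (C1qa, C1qb, C1qc and Lyz2) and the other 5 had values above 0, with a median of 3.53. C1qa, a chain of complement C1q, was 9.54 and 8.40 CPM in AD against 83.1 and 235 CPM in AD_ABR (log2 4.10, edgeR adjusted p = 0.0132). Lyz2 was 37.2 and 20.8 CPM against 243 and 331 CPM. The list as a whole summed to 87.9 and 61.1 CPM in AD against 502 and 1112 CPM in AD_ABR, against 98.9 to 263 CPM in other fibroblasts, and no marker was at 0 in all libraries. At least 2 UMIs of Csf1r, Adgre1, C1qa and Mrc1 were present in 44 of 281, 22 of 324, 2 of 15 and 3 of 15 fibroblast members. By the rule these cells had no Ptprc UMI. The part of macrophage RNA in the other changes was not tested.

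Leukocyte members differed between the groups in 301 of 10339 genes (2.91%), 115 higher (1.11%) and 186 lower (1.80%) in AD_ABR. Since the rule required Mki67 and Top2a RNA of members in both groups, the cell cycle genes are given as a description. None of the S phase or G2 and mitosis genes was among the 301 in edgeR, with medians of 0.04 and 0.33 against -0.01 for all genes. The count fell to 3 without AD_ABR library 2 and to 94 without library 1, and was 540 and 817 without AD library 1 or 2. In the 310 leukocyte members that met no second lineage criterion it was 8.

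The 8 genes of these 310 cells are named although they were chosen after their values were seen, and 6 of them also passed over all leukocyte members (not Thbs1 and Fn1). Acp5, the tartrate-resistant acid phosphatase of macrophages and osteoclasts, was the 1 that rose, from 18.2 and 27.6 to 109 and 92.6 CPM (log2 2.12 ± 0.27 SE, edgeR adjusted p = 0.0258). Arg1, the arginase of macrophages in repair, fell from 63.8 and 49.2 to 4.55 and 2.50 CPM (log2 -4.07 ± 0.47 SE, edgeR adjusted p = 0.0235). Thbs1 (thrombospondin 1) fell from 323 and 251 to 25.0 and 16.3 CPM (log2 -3.87 ± 0.29 SE, edgeR adjusted p = 0.000880). The groups did not overlap in any of the 3. Hif1a, the hypoxia-inducible factor, fell from 210 and 199 to 72.8 and 61.3 CPM (edgeR adjusted p = 0.0258). The interferon-induced gene Ifit1 fell from 316 and 304 to 75.1 and 108 CPM (edgeR adjusted p = 0.0258). Fn1, Ednrb (an endothelin receptor) and Rn18s-rs5 also fell, and Rn18s-rs5 was lower in the whole AD_ABR libraries as well. Over all leukocyte members Acp5 was 13.1 and 21.6 CPM in AD against 119 and 98.0 CPM in AD_ABR (log2 2.70 ± 0.27 SE, edgeR adjusted p = 0.00350), a call lost without AD_ABR library 2 (adjusted p = 0.0891).

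Over all leukocyte members, Cd74, H2-Eb1 and H2-DMb1 of antigen presentation by MHC class II rose. Cd74, the invariant chain of MHC class II, was 3979 and 3128 CPM in AD against 9470 and 8317 CPM in AD_ABR (log2 1.38 ± 0.17 SE, edgeR adjusted p = 0.00350), and H2-Eb1 was 1376 and 1133 CPM against 3514 and 2957 CPM. Both AD_ABR libraries stood above both AD libraries for each. Mmp13, a collagenase, was 1.19 and 3.21 CPM against 59.5 and 38.0 CPM. Apol7c had no UMI in AD and 19 and 43 UMIs in AD_ABR, at least 53.8-fold higher than 3 UMIs over the AD group. Tsc22d3 rose here too, from 81.4 and 80.8 to 208 and 308 CPM (log2 1.74, edgeR adjusted p = 0.00350). In the 310 cells none of these 6 genes passed in edgeR: Cd74 was at 0.75 (adjusted p = 0.417), Mmp13 at 3.38 (adjusted p = 0.0518) and Tsc22d3 at 1.19 (adjusted p = 0.431). Ms4a6b, Cd300a and Prelp were the other named genes that rose. In other leukocytes these and Cd74, H2-Eb1, H2-DMb1, Mmp13, Apol7c, Tsc22d3 and Acp5 were also higher in both AD_ABR libraries. Cd74 was 5958 and 7663 CPM there in AD against 11608 and 11571 CPM in AD_ABR. Mmp13 was 7.89 and 3.55 CPM against 30.6 and 33.1 CPM. Markers of other cell types moved with these genes. The 10 macrophage markers all had values above 0 (median 0.95, 1 rose) and summed to 5432 and 8519 CPM in AD against 11712 and 16391 CPM in AD_ABR. The 8 dendritic cell markers, which include the MHC class II gene H2-Ab1, summed to 1973 and 1455 CPM against 4324 and 3380 CPM. Of the 7 tested 1 rose, and 5 had values above 0 and 2 below, with a median of 0.11. The 7 T and NK cell markers tested had values above 0 (median 1.55, none passed), and so did the 6 smooth muscle markers (median 0.57, 1 rose). The part of these cells in the result was not tested.

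Among the genes that fell over all leukocyte members were 4 of the 21 matrix genes (Tnc, Timp1, Col12a1 and Col5a1), none of which rose, with a median of -0.99 for the list. Tnc was 157 and 107 CPM in AD against 14.5 and 5.91 CPM in AD_ABR, a call lost without AD_ABR library 2 (edgeR adjusted p = 0.0898). Vcan (the proteoglycan versican) was 150 and 129 CPM against 22.5 and 38.0 CPM. Vcam1, an adhesion molecule, was 206 and 237 CPM against 35.4 and 60.8 CPM, and the alarmin Il33 was 117 and 112 CPM against 4.83 and 0 CPM. Of the 24 NF-kB targets and chemokines, 5 fell (Cxcl5, Vcam1, Il6, Sele and Cxcl1) and none rose, with a median of -0.08. Cxcl5, a neutrophil chemokine, had 136 and 80 UMIs in AD and none in AD_ABR, at least 27.7-fold lower than in AD with 3 UMIs over the AD_ABR group. Csf1, the macrophage growth factor, was 83.8 and 70.2 CPM against 12.9 and 20.3 CPM, and with Fgf7 was 1 of the 2 mitogens and receptors that fell among 25 tested, with a median of -0.68. Maged1, Tnfaip6, Ckap4, Col5a3 and Serpinh1 were the other named genes that fell. In other leukocytes these and Tnc, Vcan, Vcam1, Il33 and Cxcl5 were also lower in both AD_ABR libraries. Vcam1 was 122 and 135 CPM there in AD against 42.6 and 50.8 CPM in AD_ABR. The fibroblast marker list summed to 5812 and 9084 CPM in AD against 5648 and 3016 CPM in AD_ABR, with none of its 7 markers at 0 in all libraries. In the 310 cells, Maged1, Col5a1 and Tpm1 had values above 0 (0.22, 0.32 and 0.36), Vcam1 was at -0.98 (edgeR adjusted p = 0.764) and Tnc was filtered out. The part of fibroblast RNA in these results was otherwise not tested.

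Whether a gene changed differently in dividing and in other cells was tested as a difference of the changes. The change in proliferating cells differed from that in other cells of the same lineage for 43 of 12995 genes in leukocytes (0.331%), 26 above (0.200%) and 17 below (0.131%), and for 200 of 15597 in fibroblasts (1.28%), 115 above (0.737%) and 85 below (0.545%). In fibroblasts the median of all genes in this comparison was -0.28 on the log2 scale, and without TMM scaling, where it was 0.01, the calls were 117 above and 4 below of 121. The rule required cycling of the members in both groups, which leaves a group difference in cycling to the other cells. The calls above include cell cycle genes, and nothing is read from those. Tnc fell further in the members of both lineages than in other cells, by 2.90 in leukocytes (edgeR adjusted p = 0.0281) and by 2.02 in fibroblasts (0.0257). In leukocytes that met exactly 1 lineage criterion the Tnc difference was 1.68, the other way (edgeR adjusted p = 0.930), and in fibroblasts its call was lost without TMM scaling (-1.72, edgeR adjusted p = 0.186). Of the 20 ribosome biogenesis genes and Myc targets, 4 fell further in fibroblast members than in other fibroblasts: the nucleolar proteins Ncl and Npm1, Mthfd2 (an enzyme of mitochondrial folate metabolism) and Ldha (lactate dehydrogenase). All 20 had values below 0, and 17 lay below the median of all genes. Without TMM scaling the 4 calls were lost, at values of -0.72 to -1.17 (edgeR adjusted p from 0.0947 to 0.211). Ncl, nucleolin, was 1068 and 697 CPM in AD fibroblast members and 342 and 314 CPM in AD_ABR, against 462, 414, 352 and 286 CPM in other fibroblasts. Without AD_ABR library 1 or 2 the edgeR counts in leukocytes were 0 and 3 (1545 and 1338 genes at an unadjusted p under 0.05), and in fibroblasts 197 and 62. Without AD library 1 they were 121 and 83.

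**Figure D5:**
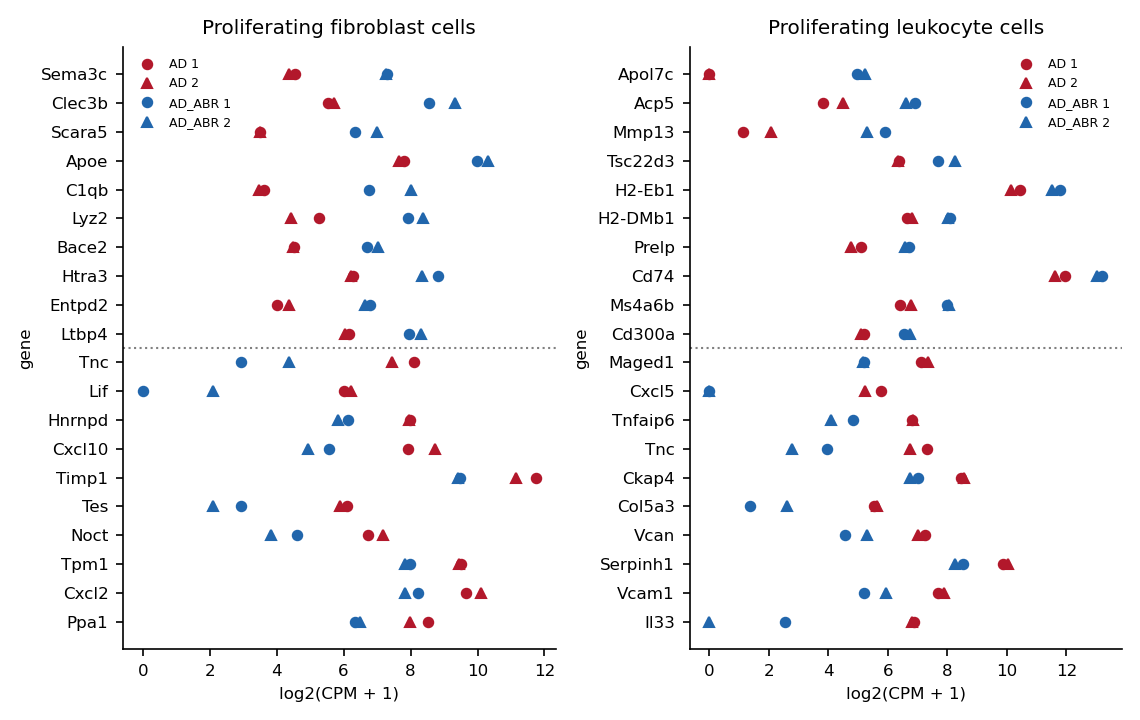
Levels of the named genes in proliferating fibroblasts (left) and leukocytes (right), as log2(CPM + 1) of the summed counts (x axis), 1 point per library. Genes above the dotted line were higher in AD_ABR and those below it lower, and the libraries of the groups do not overlap in any row, which the rule for naming them required.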

How the data were processed

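The deposited matrices hold whole UMI counts per gene and barcode. The submitters' processing notes name STAR, Cell Ranger 6.0, Seurat 4.0 and GRCm38, whereas the file headers name Cell Ranger 7.1.0; the annotation release is not given in the sources used here. Libraries held 76142840, 99572011, 93575612 and 98946431 UMIs. Members and gene lists were chosen with earlier results of these data known. Doublets were scored with Scrublet (scanpy 1.11.5) and not removed, except in an alternative.

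Cell numbers per library, with kept cells or lineage cells as the library size, and UMI counts summed per library and lineage were tested with edgeR 4.0.16 (R 4.3.3; quasi-likelihood, TMM for genes, filterByExpr, Benjamini-Hochberg adjustment, threshold 0.05). Lineages with at least 10 members in each library (fibroblast, leukocyte) entered gene tests. Differences in change used proliferating and other cells of the same libraries. DESeq2 1.42.0 and the other alternatives are described at the end. Steps were tested on simulated data. Named genes were the 4 markers, list members, and the 10 lowest p in each direction among genes past the threshold whose libraries did not overlap. For the differences in change the 5 lowest p in each direction past the threshold were named, and their libraries may overlap. For members against other cells they were the 10 highest and 10 lowest genes outside the lists by their smallest log2 ratio over 4 libraries, of at least 50 CPM. Intervals are exact binomial at 95%; they and the limits for counts of 0, set at 3 counts, cover counting error only. A second set of background cells, in which some cells also reached the threshold, is not reported here.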

Additional observations from a re-analysis of the deposited data

Results flagged for a closer look

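The change of the proliferating fraction with paquinimod differed between lineages in 5 of 10 pairs by a test of the difference itself (edgeR, adjusted over the 10). The differences on the log2 scale were 4.70 for leukocytes minus fibroblasts, 2.81 for leukocytes minus smooth muscle cells, 2.52 for endothelial cells minus fibroblasts, 1.81 for smooth muscle cells minus fibroblasts and -3.78 for fibroblasts minus cells with no lineage. This test was added after the data were seen.

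For 20 named genes the change in proliferating cells differed from that in other cells of the lineage. In leukocytes H1f5 (2.87), Lmnb1 (1.62), Cd24a (2.04), Il1b (1.41) and Birc5 (2.02) were above, and Csrp2 (-1.52), Tnc (-2.90), Col6a3 (-1.62), Fscn1 (-2.68) and Cnn3 (-1.64) below, on the log2 scale. In fibroblasts C1qb (2.92), C1qa (2.92), Cenpm (3.20), Clec3b (2.25) and C1qc (3.18) were above, and Aldoa (-1.68), Tgfbi (-1.44), Inhba (-1.78), Hspa9 (-1.55) and Sdf2l1 (-1.56) below. H1f5, Birc5 and Cenpm are cell cycle genes, whose levels in members the choice by Mki67 and Top2a bears on, so their differences are a description. In other leukocytes H1f5 was 11.5 and 9.41 CPM in AD against 2.29 and 1.91 CPM in AD_ABR. The macrophage genes C1qa, C1qb and C1qc lead in cells chosen without a Ptprc UMI, in AD_ABR groups of 15 cells per library.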

How the results depend on the processing

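The fibroblast share and fraction kept direction and call in each setting run. The share of all proliferating cells lost its call with TMM factors (-1.33) and without single AD_ABR libraries (leaving out each library gave -2.76 to -2.26). Values below are log2 changes that moved across the threshold of the edgeR test; their cause was not tested. For the leukocyte share they were -1.65 thinned to 5000 UMIs, -1.49 with doublets removed, -0.30 with TMM factors and -2.03 to -1.07 leaving out a library. For the endothelial share they were -1.83 thinned, -1.32 with doublets removed, -0.46 with TMM factors and -1.96 to -1.40 leaving out a library. For the smooth muscle share they were -0.88 at a minimum of 2 UMIs, -2.12 thinned, -0.63 with doublets removed, -1.29 under 10% mitochondrial UMIs, -1.11 with exactly 1 criterion, -0.17 with TMM factors and -1.84 to -0.94 leaving out a library. For the share with no lineage they were -1.56 thinned, -0.90 with TMM factors and -2.13 to -1.98 leaving out a library. The leukocyte fraction changed sign at a minimum of 2 UMIs (-0.0068) and thinned (-0.27), and ranged from -0.25 to 0.60 leaving out a library. The endothelial fraction was -1.45 with exactly 1 criterion, -0.83 with TMM factors and -2.41 to -1.77 leaving out a library, and the smooth muscle fraction -3.08 to -2.34. The fraction with no lineage was -1.31 at a minimum of 2 UMIs, 0.29 with TMM factors and -1.25 to -0.35 leaving out a library.

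The leukocyte minus endothelial difference passed at a minimum of 2 (2.28) or 5 UMIs (2.54), thinned (1.81), under 10% mitochondrial UMIs (2.20), at 2 Ptprc UMIs (2.34) and without AD library 1 or 2 (1.36 and 2.93). Leukocyte minus smooth muscle did not pass with doublets removed (2.09), nor smooth muscle minus fibroblast thinned (1.22), with doublets removed (2.32) or with exactly 1 criterion (1.95). Without single AD_ABR libraries no pair that had passed still did, and leaving out each of the 4 libraries gave 2.05 to 3.63 for leukocyte minus smooth muscle, 3.99 to 5.51 for leukocyte minus fibroblast, 1.90 to 3.07 for endothelial minus fibroblast, 1.75 to 1.88 for smooth muscle minus fibroblast and -4.58 to -3.00 for fibroblast minus no lineage.

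Genes called in fibroblast members numbered 387 with DESeq2, 31 to 307 leaving out a library, and 0 in edgeR at a minimum of 5 UMIs (1835 at an unadjusted p under 0.05) or with no filter (2347). In leukocyte members they numbered 191 with DESeq2, 8 with exactly 1 criterion, 885 with no filter and 3 to 817 leaving out a library. Differences in change numbered 372 with no filter, 121 without TMM scaling and 62 to 197 leaving out a library in fibroblasts, and 75 with doublets removed, 4 with exactly 1 criterion, 129 at a minimum of 5 UMIs, 421 with no filter and 0 to 121 leaving out a library in leukocytes. With exactly 1 criterion these leukocyte genes changed sign: Col5a1 (0.32), Maged1 (0.22) and Tpm1 (0.36) between groups, and Cnn3 (0.80), Col6a3 (0.22), Csrp2 (0.24), Hbegf (0.68), Tnc (1.68) and Tpm1 (0.45) in the difference of changes.

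Replicate numbers 1 and 2 occur in both groups, and deviations of same-numbered libraries were little correlated (0.03 in leukocytes and 0.06 in fibroblasts). With so few libraries this cannot exclude that same-numbered libraries were processed together, and the labels do not say. The main fits between groups used no pairing. With the replicate block 363 fibroblast and 575 leukocyte genes passed, against 96 and 301 without it. The smooth muscle share with the block was -1.36 (edgeR adjusted p = 0.0938). Cell number limits the AD_ABR values, at 15 and 15 fibroblast, 8 and 14 endothelial, 8 and 5 smooth muscle and 6 and 7 members with no lineage.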
